A study of Mus musculus with 3 samples.

Results

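C/D box snoRNAs encoded outside the imprinted loci were measured in extracellular vesicles (EVs) of the postnatal day 7 (PND7) mouse testis. The members were the snoRNA families of the deposited catalogues whose description carries a SNORD number, leaving out the families of imprinted loci (SNORD64, SNORD107, SNORD108, SNORD109 and SNORD112 to SNORD116) and SNORD118, the U8 snoRNA. There were 96 such families among the 494 snoRNA families in the catalogues. The EVs came from decapsulated testes of C57/BL6 males, and the suspended tissue was digested before the vesicles were collected on an affinity column and pelleted. The EVs of each library were treated with proteinase K, PMSF and RNase A before RNA extraction, so that the RNA read is what survived these steps. The 3 libraries, replicates 1 to 3, are biological replicates of a single condition per the labels, each pooled from 10 mice, and the samples analysed here include no other group to compare them with. Their titles carry the word treated, whereas the tissue label and the extraction protocol describe EVs isolated from testis, which was used here. The study's statistics section speaks of fewer sets, and of cell cultures, for small RNA sequencing, and this difference could not be resolved. A pool of EVs from a whole testis mixes the vesicles of all its cell types, and in such bulk libraries fewer vesicles that carry an RNA and less of that RNA in each vesicle cannot be told apart. The catalogues list small RNAs alone, so the vesicles could not be checked here against EV protein markers.

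C/D box snoRNAs are short nuclear RNAs that take their name from a pair of sequence motifs, box C near the 5′ end and box D near the 3′ end. They are bound by fibrillarin, Nop56, Nop58 and Snu13, and a stretch upstream of box D or of its internal copy pairs with a target RNA and directs 2′-O-methylation of a nucleotide there. Most targets lie in the 18S and 28S rRNA of the ribosome, some in the U6 snRNA, and a few members act in cleavage of the rRNA precursor. In mammals nearly all are cut from introns of host genes, many of which code for ribosomal or nucleolar proteins or are noncoding RNAs whose exons have no known protein product. H/ACA box snoRNAs, the other large class, direct pseudouridylation.

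A family in the catalogues can stand for several genes, and a read was counted for a family, not for a gene. In GENCODE vM21, the annotation of the GRCm38 genome, 57 of the 96 families had at least 1 gene of their name, with 69 such genes on 17 chromosomes. The leading family, SNORD20, was among the 39 families without a gene of their name and is given by its name alone. The genes of the next families by read share that have an annotated sequence are shown first, written 5′ to 3′, with box C (TGATGA, or GATGA where the full motif is missing) and box D (CTGA) in capitals. Snord104 lies outside any longer gene annotated on its strand.
Snord104 (chr11:106500993-106501062, plus strand, 70 bases): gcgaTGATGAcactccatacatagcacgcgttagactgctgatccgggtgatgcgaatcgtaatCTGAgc
Snord57 (chr2:130278016-130278087, plus strand, 72 bases): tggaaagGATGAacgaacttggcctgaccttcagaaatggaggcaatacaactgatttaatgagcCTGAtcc
SNORD49 and SNORD50 each cover a pair of genes in a noncoding host, 2410006H16Rik and Snhg5. The pair of Snord50 genes differs by 1 base, so that reads which do not cover that base match both, whereas 22 substitutions, insertions or deletions separate the pair of Snord49 genes.
Snord49a (chr11:62603450-62603521, plus strand, 72 bases): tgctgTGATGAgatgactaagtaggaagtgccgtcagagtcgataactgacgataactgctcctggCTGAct
Snord49b (chr11:62603079-62603150, plus strand, 72 bases): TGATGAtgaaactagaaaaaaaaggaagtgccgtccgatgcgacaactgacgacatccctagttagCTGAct
Snord50a (chr9:88521529-88521600, minus strand, 72 bases): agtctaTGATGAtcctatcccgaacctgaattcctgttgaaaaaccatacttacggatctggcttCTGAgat
Snord50b (chr9:88521797-88521868, minus strand, 72 bases): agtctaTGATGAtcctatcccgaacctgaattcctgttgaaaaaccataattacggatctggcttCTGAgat
Snord43 lies in an intron of Rpl3, the gene of a protein of the large ribosomal subunit. It is annotated as a miRNA gene, and its model extends beyond the boxes on the 5′ side.
Snord43 (chr15:80082847-80082954, minus strand): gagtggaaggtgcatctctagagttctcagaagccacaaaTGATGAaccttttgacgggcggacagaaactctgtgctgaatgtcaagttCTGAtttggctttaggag
The next genes share a host with a leading family and are shown because their shares of reads differ from it. Snord110 lies in the same host as Snord57 (Nop56), Snord65 in that of the Snord49 genes, Snord83b in that of Snord43 and Snord82 in Ncl, the host known for SNORD20. Snord95 and Snord96a lie together in Rack1.
Snord110 (chr2:130275506-130275573, plus strand, 68 bases): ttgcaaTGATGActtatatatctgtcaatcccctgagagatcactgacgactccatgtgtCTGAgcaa
Snord65 (chr11:62604515-62604586, plus strand, 72 bases): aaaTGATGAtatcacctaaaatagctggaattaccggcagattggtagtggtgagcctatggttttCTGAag
Snord83b (chr15:80078498-80078591, minus strand, 94 bases): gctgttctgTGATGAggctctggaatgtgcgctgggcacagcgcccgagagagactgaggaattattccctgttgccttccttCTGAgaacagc
Snord82 (chr1:86356261-86356330, minus strand, 70 bases): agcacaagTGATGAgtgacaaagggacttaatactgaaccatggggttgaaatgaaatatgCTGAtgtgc
Snord95 (chr11:48803139-48803206, plus strand, 68 bases): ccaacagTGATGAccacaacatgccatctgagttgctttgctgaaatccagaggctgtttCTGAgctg
Snord96a (chr11:48802032-48802112, plus strand, 81 bases): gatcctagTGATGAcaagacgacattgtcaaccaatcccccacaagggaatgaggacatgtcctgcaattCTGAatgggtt

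The label C/D was checked on these gene models, since the rule used names and not sequence. The models were themselves matched by name, so the check covers genes named Snord and not the reads. The 39 families without a gene of their name, SNORD20 and SNORD36 among them, were not checked. GATG, the core of box C, was within 25 bases of the 5′ end in 65 of 69 genes, and the full TGATGA in 45 of 69 (65.2%). CTGA was within 25 bases of the 3′ end in 68 of 69 genes. Among the 42 named Snora genes, which belong to the H/ACA class, the same windows held TGATGA in 0, GATG in 1 and CTGA in 6. The searches were made on the RNA strand alone, and TGATGA contains GATG. Of 63 genes with a box C motif and CTGA at their ends, 45 had a run of 4 bases before box C that is complementary to a run behind box D, as in the terminal stem of this class. The genes were 64 to 238 bases long with a median of 79, against 121 to 205 and a median of 132.5 for the Snora genes. Of the 69 genes, 52 lay within a protein-coding gene on the same strand, 16 within noncoding genes alone and 1, Snord104, in no host. The annotation put 35 wholly in introns, and 33 overlapped an exon of at least 1 host transcript.

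For replicates 1, 2 and 3 the snoRNA class totaled 242841, 135236 and 152322 reads, of 25716952, 26002463 and 27939308 clean reads. snoRNA reads were thus 0.944% of the clean reads in replicate 1 against 0.520% and 0.545% in the other two libraries. Shares below are given as percent of the snoRNA reads of a library, which removes this difference, and 3 reads, the limit that a count of 0 allows, were 0.00124% to 0.00222% on this scale.

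The C/D members held most of the snoRNA reads in every library. They had 139073, 85084 and 81818 reads, which was 57.3%, 62.9% and 53.7% of the snoRNA reads of replicates 1, 2 and 3, or 58.0% ± 4.64 (SD, n = 3). By the exact binomial (Clopper-Pearson) method, the 95% intervals of these shares had a half-width of no more than 0.258 percentage points, and intervals here cover counting error only. The libraries therefore differed by more than counting error, with replicate 2 the highest and replicate 3 the lowest. The high share of replicate 2 was not spread over the class. SNORD104 and SNORD36 held 8.79% and 5.49% there, against 3.10% and 0.459% in replicate 1 and 2.26% and 0.788% in replicate 3. Over the 73 families with at least 100 reads in every library, the median log2 difference of replicate 2 from the mean of the others was -0.19.

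The H/ACA families and the Cajal body RNAs, 90 families in all, held 17.6%, 10.0% and 14.9%. This joint group, whose Cajal body RNAs were not sorted by box, ranked lowest in the library in which the C/D members ranked highest. The C/D share exceeded that of the group by 39.7, 52.9 and 38.8 percentage points, or by 43.8 ± 7.92 (SD, n = 3). The difference had the same sign in 3 of 3 libraries and was over 5 times its SD, while an exact two-sided sign-flip permutation test gave p = 0.25, the smallest value that 3 libraries allow. The C/D reads were 3.25, 6.29 and 3.60 times the H/ACA and Cajal body reads. Against the H/ACA families alone, the mean difference in share was 46.7 percentage points.
The remainder of the snoRNA reads lay with U3 (7.57% ± 1.07), U8 (1.89% ± 0.338), the other SNORD families (1.41% ± 0.126) and 299 families under other names (17.0% ± 3.26; SD, n = 3 each). U3 and U8 act in cleavage of the rRNA precursor and were counted apart from the C/D members, whatever their boxes. As a share of clean reads, the C/D members held 0.541%, 0.327% and 0.293%, so that replicate 1 was highest on this scale.

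**Figure D1:**
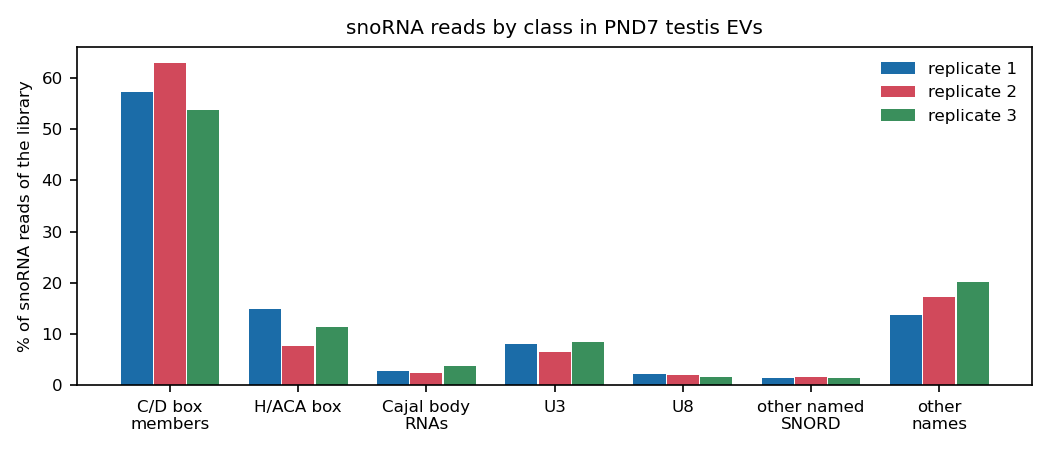
Share of the snoRNA reads of each library (y axis, percent) held by each class of snoRNA, with a bar for each of the 3 replicates. The C/D members held 53.7% to 62.9%, and the next highest bar is the 20.1% of families under other names in replicate 3.

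Single families were larger than among the H/ACA snoRNAs, whose lengths differ as given above. The median C/D family held 0.255% of the snoRNA reads and the median of the 73 H/ACA families 0.0663%. A mean share above 1% was reached by 15 C/D families and by 1 H/ACA family, SNORA7 at 1.15%. These are shares of reads, not levels per molecule, since a longer RNA can give more reads.

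Reads were concentrated in few families. SNORD20 alone gave 14.0%, 9.62% and 17.9% of the C/D reads of replicates 1, 2 and 3. The 10 families with the highest mean share gave 47.3%, 59.8% and 51.2%, or 52.8% ± 6.40 (SD, n = 3), and the highest 40 gave 86.6% ± 2.18. For the H/ACA families, the highest 10 gave 47.6% ± 2.64 of their own class.

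SNORD20, which guides methylation of 18S rRNA, had 19466, 8185 and 14664 reads, or 8.02%, 6.05% and 9.63% of the snoRNA reads (mean 7.90% ± 1.79, SD, n = 3). It was the highest family in replicates 1 and 3 and the second in replicate 2. SNORD57, an 18S guide, had 7549, 5733 and 5872 reads, or 3.11%, 4.24% and 3.85%, and ranked between 2 and 4 in every library. SNORD49, a 28S guide, held 3.20%, 3.91% and 2.24% and ranked 3, 5 and 5. These were among the 6 families that were within the highest 10 of every library.
SNORD43, an 18S guide, held 3.67%, 2.54% and 1.76%, and its highest library was replicate 1. SNORD50, a 28S guide, held 2.40%, 1.35% and 2.28%, with replicate 2 the lowest. SNORD15, a long 28S guide, held 1.07%, 2.03% and 1.99%, with replicate 1 the lowest. SNORD58 and SNORD24, both 28S guides in ribosomal protein genes, held 1.37% ± 0.355 and 1.31% ± 0.461 (SD, n = 3 each), and complete the 10 highest.

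SNORD104 and SNORD36 were high in replicate 2. SNORD104, the 28S guide printed above, had 7537, 11894 and 3444 reads, or 3.10%, 8.79% and 2.26%, which made it the highest C/D family of replicate 2. The exact binomial 95% intervals, 3.04% to 3.17%, 8.64% to 8.95% and 2.19% to 2.34%, did not overlap. Its mean of 4.72% ± 3.55 (SD, n = 3) had a rank of 2, and without replicate 2 it was 2.68% with a rank of 5.
SNORD36, a family that guides methylation in both rRNAs and is hosted by Rpl7a, had 1115, 7423 and 1200 reads. Its share was 0.459%, 5.49% and 0.788%, with ranks of 33, 3 and 15. The mean of 2.25% ± 2.81 (SD, n = 3) rests on replicate 2, and without it the mean was 0.623% and the rank 21. SNORD24 shares the Rpl7a host and held 1.08%, 1.84% and 1.01%, so SNORD24 reads were 2.35 times those of SNORD36 in replicate 1, 0.335 times in replicate 2 and 1.28 times in replicate 3. What set replicate 2 apart was not tested.

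**Figure D2:**
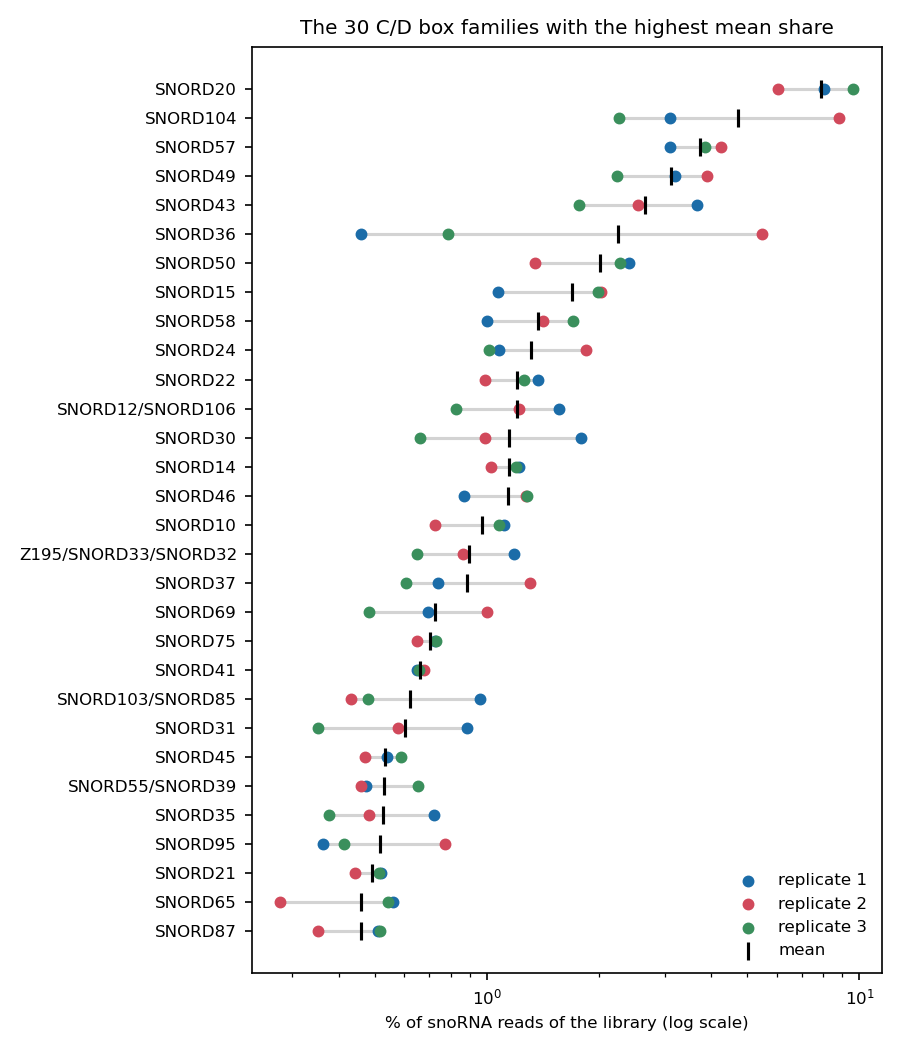
Shares of snoRNA reads (x axis, percent on a log scale) of the 30 C/D families with the highest mean share, with a colored point for each of the 3 libraries, a tick for the mean and a gray line for the range. SNORD20 held 6.05% to 9.63%, whereas SNORD36 spanned 0.459% to 5.49%.

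Families were then grouped by the kind of host gene they are known from, mostly from the human families. Of the 96 families, 80 were in a host list, and 47 of the 48 of these that have an annotated mouse host fell into the same list by the annotation. The exception was SNORD89, listed under protein-coding hosts, whose annotated host Gm15832 is a noncoding transcript. Ribosomal protein genes, the most frequent hosts, covered 23 families and 27.7% ± 3.37 (SD, n = 3) of the C/D reads, with 25.5%, 31.6% and 26.1% in replicates 1, 2 and 3. The median family here held 0.421% of the snoRNA reads, against 0.255% over all members. SNORD43, SNORD36 and SNORD15 led the list, and SNORD96, with 11 reads in replicate 1 and none elsewhere, was the lowest. Of the 31.6% in replicate 2, SNORD36 alone gave 8.72% of the C/D reads. In replicates 1 and 3 it gave 0.802% and 1.47%.

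Genes of nucleolar proteins, which include the snoRNP proteins Nop56 and Nop58, nucleolin (Ncl), Gnl3 and Ppan, hosted 13 families with 24.0% ± 4.68 of the C/D reads. Shares were 23.2%, 19.8% and 29.0%, and the order of the ribosomal protein and nucleolar lists was turned in replicate 3. Without replicate 2 the mean was 25.8% for the ribosomal protein list and 26.1% for the nucleolar list, so their order in the mean rests on replicate 2. SNORD20, SNORD57 and SNORD69 led, while the median family held 0.140% and SNORD19B, with 10 reads in replicate 2 alone, was the lowest. This list thus held its reads in few members.
The noncoding hosts other than Gas5 and Snhg1 covered 8 families with 13.6% ± 1.73 of the C/D reads, led by SNORD49, SNORD50 and SNORD12/SNORD106, with SNORD48 the lowest at 0.106%. Snhg1 hosts 8 families with 6.44% ± 1.71, led by SNORD22 (1.21%), SNORD30 (1.15%) and SNORD31 (0.603%). Its lowest, SNORD25, had 9 reads in replicate 3 and none in the other libraries. Gas5, a growth-arrest transcript with a snoRNA in most of its introns, hosts 8 catalogued families with 3.29% ± 0.616, led by SNORD75 (0.702%), SNORD74 (0.446%) and SNORD44 (0.260%), and SNORD78 was the lowest at 0.0523% (SD, n = 3 for each list).
Translation factor genes hosted 6 families with 4.67% ± 0.305 of the C/D reads, led by SNORD10 (0.970%), SNORD37 (0.884%) and SNORD97 (0.427%), with SNORD51 (0.0209%) at the end. The list was the steadiest of the host lists between libraries, at 4.49%, 4.50% and 5.02%. The other protein-coding hosts covered 14 families with 6.80% ± 1.32, led by SNORD103/SNORD85, SNORD45 and SNORD88, with SNORD63, at 43, 12 and 0 reads, the lowest (SD, n = 3 for both). The 16 families in no host list, SNORD104 included, held 11.4%, 18.6% and 10.4%. Absence from the lists does not mean that a family has no host. SNORD14 (Hspa8 and Rps13), SNORD23 (Nop53) and SNORD123 (Snhg18), among others of this group, had annotated mouse hosts.

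**Figure D3:**
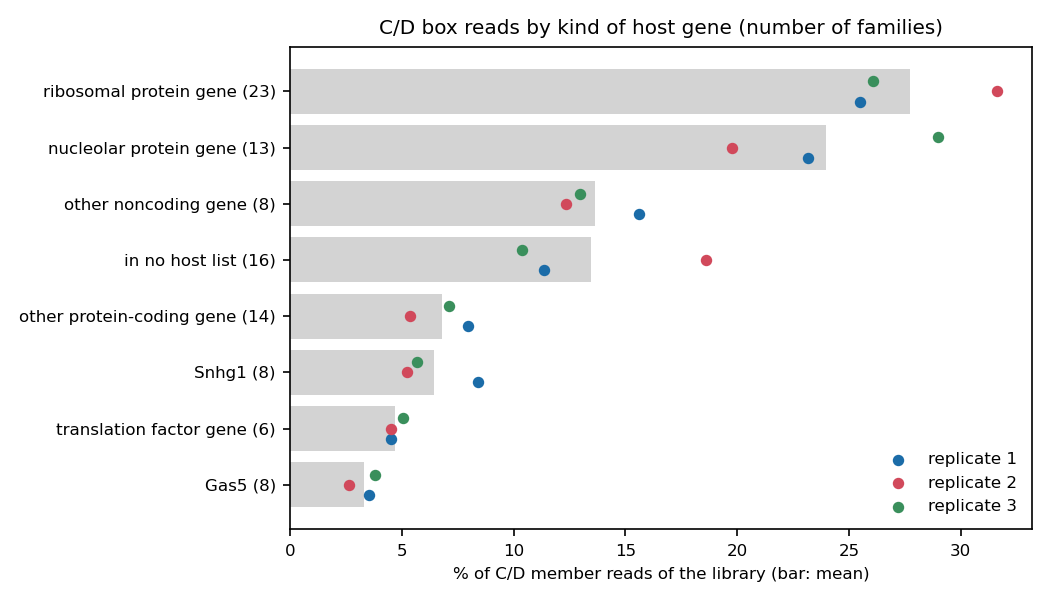
Share of the C/D member reads (x axis, percent) by kind of host gene, with the number of families in parentheses, gray bars for the mean of the 3 libraries and a point for each library. Ribosomal protein genes (27.7%) and nucleolar protein genes (24.0%) were the highest, and their order differed between libraries. Without replicate 2 their means were 25.8% and 26.1%.

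Members of a single host gene are cut from the same precursor, and their shares are set side by side here per length of the annotated gene. This scaling presumes that reads rise with length. Across the 57 families with an annotated gene, Spearman's rho of mean share with length was -0.010. Values are given for 8 annotated hosts with at least 2 member families, leaving out families with genes in several hosts. In 7 of them the family with the highest mean lay above that with the lowest in every library, and in Gas5 the order was turned in 1 library. Highest and lowest were set by the means of these same libraries, so this count describes the order and does not test it. Values are shares of snoRNA reads per 100 annotated bases, or ratios of these.

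In Nop56, a core protein gene of the C/D snoRNP itself, SNORD57 held 4.32%, 5.89% and 5.35% per 100 bases. SNORD110, printed above and also an 18S guide, held 0.192%, 0.163% and 0.193%. The ratio was 22.5, 36.1 and 27.7, or 28.8 ± 6.86 (SD, n = 3). SNORD110 was at the same time one of the steadiest members between libraries.
In Rpl3, SNORD43 exceeded SNORD83 by 11.7, 10.9 and 9.27 times per length, or 10.6 ± 1.22 (SD, n = 3). Both were highest in replicate 1 and lowest in replicate 3, and their ratio varied less than either share. The Snord43 model includes bases outside the boxes, and a shorter length would raise its value per length.
In Nop58, SNORD11 exceeded SNORD70 by 11.9, 7.70 and 15.5 times. In 2410006H16Rik, SNORD49, with a pair of genes, exceeded SNORD65 by 5.73, 14.0 and 4.12 times. In Gnl3, the ratio of SNORD69 to SNORD19 was 1.95, 6.22 and 1.74. In these hosts, replicate 2 set the highest or the lowest ratio.

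Wide gaps between members were also seen in the hosts Ncl and Rack1. In Ncl, SNORD20 had 123, 50.5 and 70.8 times the reads of SNORD82, whose counts were 158, 162 and 207. This is a ratio of reads, since SNORD20 has no gene of its name in the annotation. In Rack1, whose product sits on the small ribosomal subunit, SNORD95 had 884, 1046 and 630 reads and SNORD96 had 11, 0 and 0.
In Rpl13a, the joint family of SNORD32 and SNORD33 exceeded SNORD34 by 1.86, 3.77 and 1.31 times per length. In Gas5, SNORD47 was 8.80, 0.926 and 1.29 times SNORD78, which had 34 reads in replicate 1. This Gas5 pair did not differ beyond the spread between libraries. Other Gas5 members did, since SNORD75, which has no gene of its name, had 52.0, 8.77 and 10.6 times the reads of SNORD78.

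**Figure D4:**
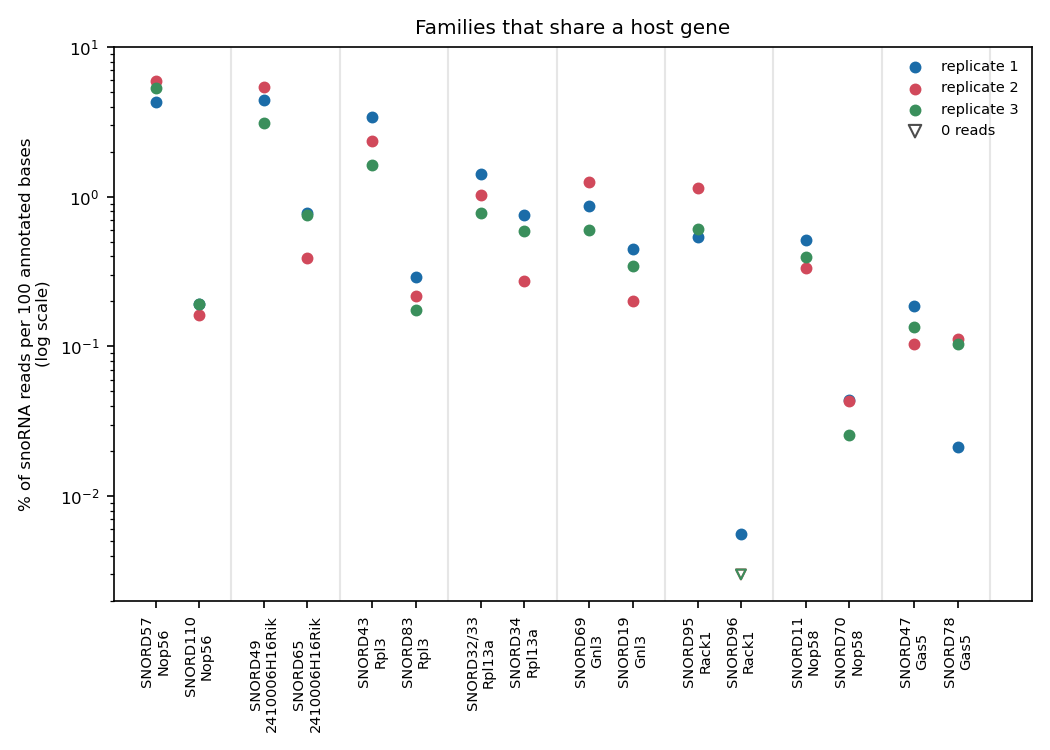
Share of snoRNA reads per 100 annotated bases (y axis, percent on a log scale) of C/D families that share an annotated host gene, named under each family, with a point for each of the 3 libraries and open triangles at the bottom for 0 reads. SNORD57 lay 22.5 to 36.1 times above SNORD110 in Nop56, whereas SNORD47 and SNORD78 of Gas5 overlapped.

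By known target, 81 families were in a list. Guides of 28S rRNA covered 46 families and 50.5% ± 4.08 of the C/D reads, with 50.5%, 54.6% and 46.4% in the libraries, led by SNORD104, SNORD49 and SNORD50, with SNORD126, seen with 16 reads in replicate 2 alone, the lowest. Guides of 18S rRNA covered 29 families and 36.4% ± 6.60, with 38.5%, 29.0% and 41.7%, led by SNORD20, SNORD57 and SNORD43, with SNORD25 the lowest (SD, n = 3 for both). The median family held 0.408% of the snoRNA reads among the 28S guides and 0.251% among the 18S guides, against 0.255% over all members.

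The log2 ratio of 28S-directed to 18S-directed reads was 0.39, 0.91 and 0.15, or 0.49 ± 0.39 (SD, n = 3). It was above 0 in 3 of 3 libraries, and the exact two-sided sign-flip permutation test gave p = 0.25, the smallest possible here. The 28S list has 46 families and the 18S list 29. The ratio sums over lists of unlike size, so a value above 0 does not show more reads per family. The mean ratio is near its SD. Without the leading family of each list, SNORD104 and SNORD20, the ratio was 0.88, 1.07 and 0.83. Per annotated length it was 0.78, 1.34 and 0.71. This leaves out every family without an annotated length, among them SNORD20, the 18S guide SNORD56 and the 28S guides SNORD24 and SNORD30.
Only SNORD36 and the joint family of SNORD32 and SNORD33 were in the list of guides with both targets, with 2.86%, 10.1% and 2.67% of the C/D reads, most of the excess in replicate 2 being that of SNORD36. The U6 guides in the list, SNORD94 and SNORD67, held 1.01% ± 0.235 of the C/D reads (SD, n = 3), with 0.376% and 0.207% of the snoRNA reads. The guides of the short rRNA that pairs with 28S rRNA, SNORD71 and SNORD96, held 0.145% ± 0.0536 (SD, n = 3), nearly all of it SNORD71. Of the 15 families in no target list, the highest were SNORD22 and SNORD10, with 1.21% and 0.970% of the snoRNA reads. Together the 15 held 6.71% ± 1.30 of the C/D reads (SD, n = 3). A family in no list can still have a target, for U6 as for the rRNAs, so each target share is that of the listed guides alone.

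Read share showed little relation to the length of the gene. Across the 57 families with an annotated gene, Spearman's rho between length and mean share was -0.010, and it was 0.027, -0.011 and -0.034 in the libraries taken singly. The 3 families of at least 120 bases, SNORD15, SNORD22 and SNORD17, held 1.69%, 1.21% and 0.205%. For the percentage of G and C, rho with mean share was 0.28 across 46 families with a single gene. Per 100 bases, the order of the leading annotated families was SNORD104 (6.74%), SNORD57 (5.19%), SNORD49 (4.33%), SNORD50 (2.79%) and SNORD43 (2.46%). These correlations are across families of the same libraries, and families are not independent replicates.

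The libraries ranked the families alike but differed in their levels by more than counting error. Across the 96 families, Spearman's rho of read counts was 0.935 for replicates 1 and 2, 0.941 for 1 and 3 and 0.938 for 2 and 3, where the counts of a family share its sequence and assay. Over the 88 families with at least 10 reads in every library, chi-square per degree of freedom, a statistic near 1 for sampling noise, was 247, 90.2 and 181 for the same pairs. Without SNORD36 it was 148, 88.8 and 131, so SNORD36 gave much of the excess of the pairs with replicate 2, and the pair without it changed little.
The median family differed 1.75-fold between its highest and lowest library, against 2.32-fold over the 57 H/ACA families with the same minimum of reads, which were also less abundant. Of the 73 families with at least 100 reads in every library, 26 differed by less than 1.5-fold and 21 by more than 2-fold.

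The widest spreads among these 73 were those of SNORD36 (12.0-fold), SNORD104 (3.89-fold), SNORD99 (3.29-fold), SNORD56 (2.89-fold) and SNORD34 (2.76-fold). SNORD99, a 28S guide in Snhg12, held 0.282%, 0.0858% and 0.194% of the snoRNA reads, and SNORD34, a 28S guide in Rpl13a, 0.530%, 0.192% and 0.414%, both lowest in replicate 2. SNORD56, an 18S guide in Nop56, held 0.238%, 0.172% and 0.495% and was highest in replicate 3. Against the mean of the other libraries, replicate 2 was over 2-fold higher for 2 of the 73 families, SNORD36 (log2 difference 3.14) and SNORD104 (1.71), and over 2-fold lower for 4, with SNORD99 the farthest (-1.47). The median of this log2 difference over the 73 families was -0.19 in replicate 2, 0.13 in replicate 1 and 0.07 in replicate 3.

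The steadiest families were SNORD41, SNORD75, SNORD21, SNORD110 and SNORD14. SNORD41, a 28S guide, held 0.647%, 0.677% and 0.655%, a spread of 1.05-fold. SNORD75, a 28S guide in Gas5, held 0.728%, 0.648% and 0.730%, or 1.13-fold. SNORD14, also known as U14, which acts in processing of 18S rRNA as well as its methylation, held 1.22%, 1.02% and 1.20%, or 1.19-fold. SNORD21 and SNORD110 spread 1.18-fold each.

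**Figure D5:**
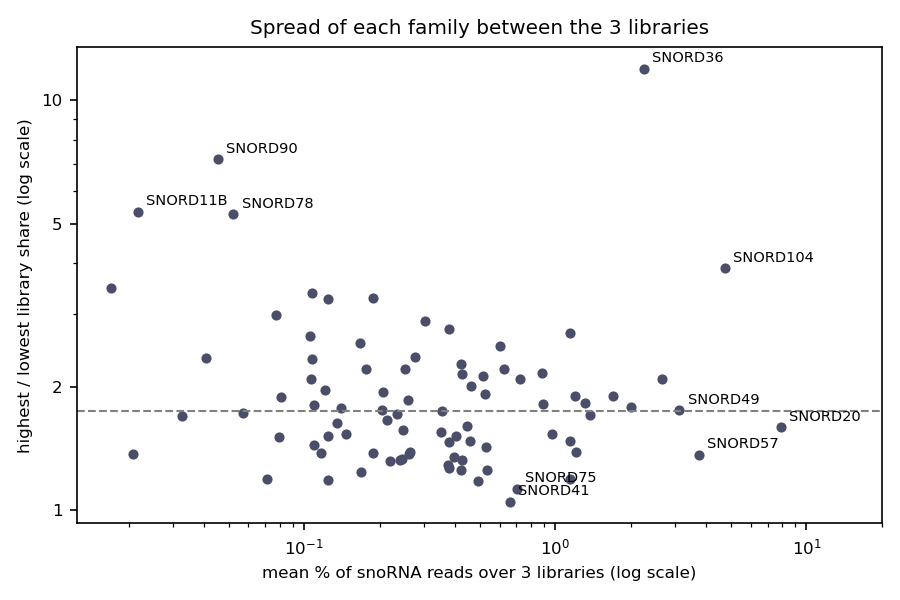
Ratio of the highest to the lowest library share (y axis, log scale) against the mean share of snoRNA reads (x axis, percent on a log scale) for the 88 C/D families with at least 10 reads in every library, with the median of 1.75 as a dashed line. SNORD36 (12.0-fold) stands apart from families of like share, and SNORD41 (1.05-fold) is the lowest.

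At the low end, 89 of the 96 families had reads in all 3 libraries, 1 in 2 libraries and 6 in 1 library. No family seen in a single library reached 100 reads there, and the most was 46 reads for SNORD124 in replicate 3. That is 0.0302% of its snoRNA reads, and 0 reads in replicates 1 and 2 allow shares of up to 0.00124% and 0.00222% by counting error alone, with PCR copies not told apart. The others were SNORD126 (16 reads), SNORD96 (11), SNORD19B (10), SNORD25 (9) and SNORD125 (1), and their naming followed a look at the values. SNORD125 was thus below the limit of 3 reads.
Of families under 100 reads in at least 1 library, SNORD90 had 252, 24 and 22 reads, SNORD78 had 34, 100 and 105, and SNORD98 had 57, 43 and 2, and these too were chosen after the values were seen. Each had a single library apart from the rest, replicate 1 for SNORD90 and SNORD78 and replicate 3 for SNORD98. Replicate 1 was the highest library for 44 of the 96 families, replicate 2 for 22 and replicate 3 for 30.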

How the data were processed

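Libraries were read by BGISEQ-500. After a quality filter, the authors used Bowtie2 and cmsearch for mapping and gave each read to 1 class, with miRNAs and piRNAs before snoRNAs. Versions are not given in the sources used here, and the submitters' processing notes name mm10. They deposited raw read counts for each class and each small RNA. From the deposited counts, shares of snoRNA reads were computed per library and given as mean ± SD. A deposited column headed as molecular identifiers was not used, and PCR copies were not told apart. Exact paired sign-flip tests, two-sided, cannot go below p = 0.25 with 3 libraries. The statistic for pairs of libraries was tested on simulated data.

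Host and target lists came from general knowledge of the human families. SNORD19 was moved from the 28S to the 18S list after the files were seen. Members and lists were chosen with earlier results of these data known. Named families were the 10 highest, the 3 highest and the lowest detected of each list, and the 5 widest and 5 narrowest spreads among families with at least 100 reads in every library. Genes, hosts and sequences came from GENCODE vM21, matched by name, with a host being a longer gene around them on the same strand. Some hosts are not reported here. Synonyms came from RefSeq. Alternatives changed members, denominators, count minimums, lists, scaling and libraries. Computations used SciPy 1.17.1, numpy 2.4.6 and pandas 2.3.3 under Python 3.11.15, and plots matplotlib 3.10.9.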

Additional observations from a re-analysis of the deposited data

Results flagged for a closer look

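Reads were also assigned to snoRNA families whose descriptions name other organisms, which lie outside the comparisons above and are given as values. The 91 such families together held 3.12%, 4.56% and 5.67% of the snoRNA reads of replicates 1, 2 and 3, with a mean of 4.45% ± 1.28 (SD, n = 3), above the limit of 3 reads that a count of 0 allows. A single family named for A. fumigatus, Afu_294, gave 4763, 4346 and 6127 of these reads, or 3.07% ± 1.04 (SD, n = 3) of the snoRNA reads, more than all C/D families but SNORD20, SNORD104, SNORD57 and SNORD49. The origin of these reads was not tested.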

How the results depend on the processing

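No paired analysis was possible because all libraries belong to 1 group, so no replicate number joins samples of different groups. The sign-flip tests set classes of the same library against each other. Both results with a sign-flip test kept their direction under every alternative run, though not their size. The C/D share exceeded that of H/ACA and Cajal body RNAs by 0.287 percentage points of clean reads, and the mean log2 ratio of 28S-directed to 18S-directed reads was 0.92 without the leading family of each list and 0.94 per annotated length. Of the other values, 10 moved by over 1 SD or, for counts, spreads and correlations, by over 1.5 times, as follows. The C/D share was 0.387% with clean reads as the denominator and 62.7% without U3 reads. With guides of both rRNAs counted in each list, the 28S list held 55.7% of the C/D reads. With hosts from the annotation and families with an annotated host alone as the denominator, the lists held 0.506% (Gas5), 3.77% (Snhg1), 16.7% (nucleolar), 25.7% (other noncoding), 15.9% (other protein-coding), 33.3% (ribosomal protein) and 4.03% (translation factor), where families without a named gene, SNORD20 among them, drop out. Leaving out each replicate in turn gave a C/D share of 55.5% to 60.1%, a difference from the H/ACA and Cajal body share of 39.2 to 46.3 percentage points and a share of the 10 highest families of 50.8% to 55.5%. Without replicate 2 the log2 ratio of 28S-directed to 18S-directed reads fell to 0.27, and without replicate 3 it was 0.65. Adding families with a RefSeq synonym, leaving out SNORD36 from the spread and from the 10 highest, and the ratio per length were chosen after seeing the data, and of these only the ratio per length moved past these limits. Without a comparison group, such as total testis RNA, the shares cannot show selective loading, and reads need not cover whole molecules.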

Other observations

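Further C/D box snoRNAs were counted under names without a SNORD number. The family U6-53/MBII-28, a RefSeq synonym of Snord8, had 3167, 2953 and 4026 reads, or 2.04% ± 0.680 of the snoRNA reads (SD, n = 3), a share that would rank among the 10 highest C/D families. MBII-202, a synonym of Snord68, had 1222, 433 and 1116 reads, or 0.519% ± 0.207 (SD, n = 3). With both added, the share of the C/D members was 60.5%. U3, U8 and the other SNORD families stayed outside this share, so it is not that of all C/D box snoRNAs. The annotated Snord33 sequence contains the mature miR-5121, and since miRNAs were assigned before snoRNAs, reads of that stretch were counted apart. There were 41, 0 and 9 of them, against 2862, 1168 and 988 for the joint family of SNORD32 and SNORD33.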
